A study of Mus musculus with 4 samples.

Results

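Lysosome and autophagy genes were followed in mouse primary cardiac fibroblasts, which make the matrix of the heart, during direct reprogramming toward induced cardiomyocytes. The genes were all rows of the deposited count table whose symbol begins as a lettered cathepsin (Cts), a vacuolar proton pump subunit or accessory protein (Atp6v, Atp6ap), a lysosome-associated membrane protein (Lamp) or a numbered autophagy gene (Atg). This gave 51 of 16383 genes, namely 15 cathepsins, 19 proton pump genes, 2 Lamp genes and 15 Atg genes. The group shNr4a3 consisted of cells given MGT (the usual abbreviation for the reprogramming factors Mef2c, Gata4 and Tbx5) and a hairpin against the orphan nuclear receptor Nr4a3, with 2 libraries. It was set against shNT, cells given the same factors and a non-targeting hairpin, also with 2 libraries. All 4 libraries were made on day 7 of reprogramming from wild-type primary cells, taken from animals aged 3 months, and no library without MGT was analysed here. The study's stated purpose was to learn on what molecular basis knockdown of Nr4a3 enhances reprogramming.

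The lysosome is the acid compartment in which cells break down proteins, lipids and sugars. The vacuolar proton pump acidifies it by ATP hydrolysis in a cytosolic V1 sector that drives proton passage through a membrane-bound V0 sector, and the acid activates the cathepsins, its main proteases. Autophagy delivers cytoplasm and organelles to it: the Atg proteins build a double membrane, attach ubiquitin-like Atg8 proteins to it and close it around the cargo before it fuses with a lysosome. In fibroblasts, cathepsins also take part in the turnover of collagen and other matrix.

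Depth lay between 28220440 and 30976450 counts per library. The table covers 16 chromosomes, with chromosome 6 only in part. Genes elsewhere, among them Ctsd, Lamp1, Lamp2, Atg7 and several pump subunits, were not analysed here. Nr4a3 was at 0.596 and 1.04 CPM (counts scaled to a common library size with TMM factors) in shNr4a3, against 12.5 and 11.5 CPM in shNT (log2 fold change -3.86, SE 0.267, edgeR adjusted p = 2.65e-06). Of 10736 genes tested, 60.2% passed at an edgeR adjusted p under 0.05, 30.7% as higher and 29.4% as lower in shNr4a3, so a passing gene is the common case in these data. The collagen genes of fibroblasts were abundant in every library (Col1a2 at 1947 and 1883 CPM in shNr4a3, against 2478 and 2649 CPM in shNT), while of the 8 fibroblast markers tested 5 fell and 1 rose. Markers of other heart cells also moved. Of 8 cardiomyocyte markers 6 rose and 1 (Tnnt2) fell, with a median log2 fold change of 0.80. Nppa, with the largest rise of the 8, was at 85.3 and 80.2 CPM in shNr4a3, against 2.80 and 3.14 CPM in shNT. The summed level of the 8 was lower, at 8718 and 7739 CPM in shNr4a3, against 15587 and 13360 CPM in shNT. Tnnt2 was the only one of the 8 called lower, so this sum does not describe the 6 that rose. Of 6 endothelial markers 2 rose and 2 fell, and of 3 mural cell markers 2 rose and 1 fell. The part of these cells in the values below was not tested. Whether the replicates of a hairpin were grown separately or share an animal is not stated, so p-values reflect only how far these libraries spread, which may be technical. In such bulk samples, fewer cells of a type and less RNA per cell cannot be told apart.

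Across the lysosome and autophagy genes genes rose and genes fell within each of the 3 classes that could be tested. Of the 51 genes, 39 had enough counts to be tested. Of these 13 rose, 15 fell and 11 missed the threshold, so 71.8% of the tested members were called against 60.2% of all genes. Their median log2 fold change was -0.17, against 0.02 over all genes tested. The largest changes among the called members were a fall of 2.01 on the log2 scale for Ctsf and a rise of 1.93 for Atp6v0e2. In 35 of the 39 the shNr4a3 and shNT values were apart, against 81% of all genes tested. A called change of at least 2-fold was seen for 10 of the 39, against 26.3% of all genes tested. Of the 12 members not tested, 7 had 0 counts in all 4 libraries. These were the cathepsins Ctsj, Ctsr, Ctsm and Ctsg, the pump genes Atp6ap1l and Atp6v1g3, and Lamp5. A count of 0 allows up to 3 counts, or 0.0977 to 0.105 CPM per library.

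**Figure D1:**
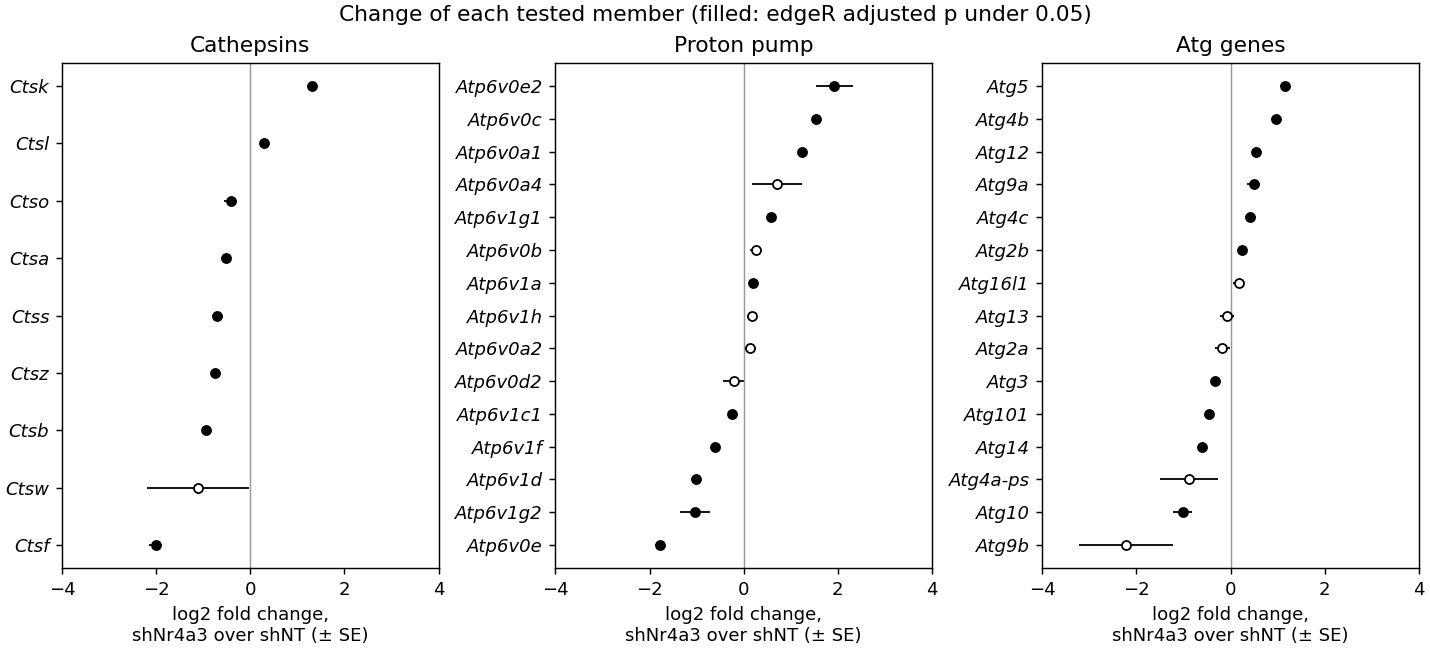
Log2 fold change of shNr4a3 over shNT (x axis) for the 39 tested members, in one panel each for cathepsins, proton pump and Atg genes. Points are edgeR estimates with bars of ± 1 SE, filled where the adjusted p was under 0.05; members lie on both sides of 0 in every panel, from -2.22 for Atg9b, which did not pass, to 1.93 for Atp6v0e2.

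The promoters of the members were searched for 3 short motifs. RefSeq windows of 300 bases (250 before to 50 after a gene's start, build GRCm38.p6, equal to mm10) matched 39 of the 51 members. The E-box CACGTG, a palindrome that reads the same on both strands, was in a window of 9 of the 39 members (23.1%), against 8.09% of all 27025 genes with a window and 9.50% of the protein-coding genes of the table. The longer CLEAR core, which contains the E-box with 2 more bases on each side and is the site known for the lysosomal regulator Tfeb, was in 0 of 39 (0.37% of all genes), and the NBRE AAAGGTCA, the site known for Nr4a receptors, was in 0 of 39 on either strand (1.7% of all genes). Of the 9 members with the E-box, 3 rose (Atg5, Ctsl and Atp6v1a, of which Ctsl lost its call under 2 and Atp6v1a under 8 alternative settings), 5 fell (Ctsf, Atp6v0e, Atg14, Ctsa and Atg3) and 1, Atp6v0b, did not pass. A match describes only the letters of these windows, and RefSeq places some of them at a start within the gene. The matching window of Ctsa belongs to a start 900 bases inside the annotated gene, while a second Ctsa window at the gene's annotated start holds no E-box. Those of Atg14 and Atp6v0e lie at starts 2215 and 13165 bases inside the gene. The windows of 4 of these genes are shown because they hold the same motif while the genes moved in opposite directions. Counts were made per gene, so no value belongs to a single start. The first are Atg5, the Atg gene with the largest rise, and Ctsf, the cathepsin with the largest fall. The others are Ctsa and Atg3, which fell and hold the motif at 2 places each. The capitals mark the E-box, which begins 14 bases before the start in Atg5, 79 bases before it in Ctsf, 94 and 71 bases before it in Atg3, and, at the inner start only, 12 bases before and 5 bases after it in Ctsa. All are on the plus strand, at chr10:44268089-44268388 for Atg5, chr19:4854915-4855214 for Ctsf, chr2:164833523-164833822 for Ctsa and chr16:45158579-45158878 for Atg3.
Atg5: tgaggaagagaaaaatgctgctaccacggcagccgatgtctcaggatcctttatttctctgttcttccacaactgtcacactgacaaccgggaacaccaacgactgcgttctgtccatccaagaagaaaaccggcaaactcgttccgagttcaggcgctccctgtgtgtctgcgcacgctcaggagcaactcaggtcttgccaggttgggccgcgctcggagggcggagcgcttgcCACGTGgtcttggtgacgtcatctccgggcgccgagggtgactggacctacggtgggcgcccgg
Ctsf: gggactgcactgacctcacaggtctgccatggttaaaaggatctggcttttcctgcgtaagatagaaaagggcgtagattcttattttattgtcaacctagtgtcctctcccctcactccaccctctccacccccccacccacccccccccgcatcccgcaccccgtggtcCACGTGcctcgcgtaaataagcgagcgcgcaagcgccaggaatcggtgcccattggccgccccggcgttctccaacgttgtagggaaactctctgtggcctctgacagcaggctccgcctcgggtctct
Ctsa: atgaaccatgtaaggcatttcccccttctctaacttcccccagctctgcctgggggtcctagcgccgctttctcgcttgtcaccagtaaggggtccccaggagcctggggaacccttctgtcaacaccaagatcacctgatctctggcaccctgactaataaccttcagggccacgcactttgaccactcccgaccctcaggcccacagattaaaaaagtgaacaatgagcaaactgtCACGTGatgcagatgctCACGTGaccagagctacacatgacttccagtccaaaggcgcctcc
Atg3: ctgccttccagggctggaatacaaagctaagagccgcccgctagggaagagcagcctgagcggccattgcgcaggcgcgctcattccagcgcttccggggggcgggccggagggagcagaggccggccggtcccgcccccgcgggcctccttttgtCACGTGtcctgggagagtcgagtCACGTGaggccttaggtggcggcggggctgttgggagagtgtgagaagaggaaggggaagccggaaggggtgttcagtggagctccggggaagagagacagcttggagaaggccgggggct

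Most cathepsins fell, and Ctsl and Ctsk rose. Of 15 cathepsin genes 9 were tested; 6 fell, 2 rose and 1 missed the threshold, and the median log2 fold change was -0.70. The summed level of the class was 2901 and 2698 CPM in shNr4a3, against 3256 and 3199 CPM in shNT, 13.3% lower in the mean. The share of genes called in either direction was 88.9%, against 60.2% of all genes tested.

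Ctsl, a broad lysosomal cysteine endopeptidase (chromosome 13, 64359337 to 64370890, mm10), was the most abundant of the 15 cathepsin genes analysed in every library. It was at 1771 and 1613 CPM in shNr4a3, against 1406 and 1366 CPM in shNT. Both shNr4a3 libraries lay above both shNT libraries (log2 fold change 0.29, SE 0.0786, edgeR adjusted p = 0.0109), but the call was lost without either shNT library (adjusted p = 0.104 without replicate 1 and 0.127 without replicate 2). Ctsb, a cysteine protease that also trims peptides from their carboxyl end (chromosome 14, 63122462 to 63145923), was at 565 and 572 CPM in shNr4a3, against 1089 and 1089 CPM in shNT. It fell by 0.94 on the log2 scale (SE 0.072, edgeR adjusted p = 5.11e-06), with no overlap between the groups. Ctsl therefore made up 61.1% and 59.8% of the counts on the 15 cathepsin genes analysed in shNr4a3, against 43.2% and 42.7% in shNT. Ctsd and any other cathepsin outside the table are not in this total. Ctsb made up 19.5% and 21.2% of them in shNr4a3, against 33.5% and 34.0% in shNT. Exact 95% intervals of these shares reach at most 0.335 percentage points from the value, for counting error only.

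**Figure D2:**
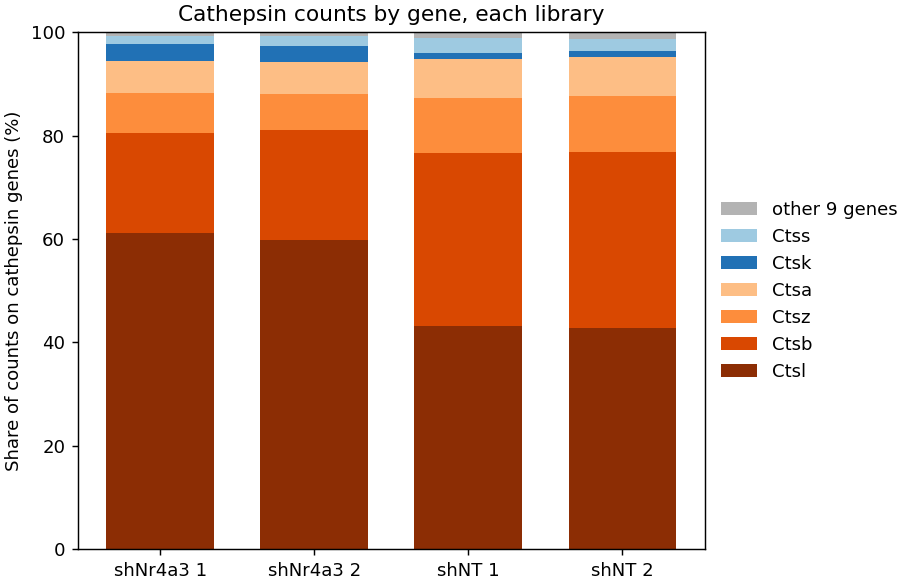
Share of the counts on the 15 cathepsin genes (y axis, percent) taken by each gene, as stacked bars for the 2 shNr4a3 and 2 shNT libraries. The Ctsl segment is near 60% in both shNr4a3 libraries (61.1% and 59.8%) and near 43% in both shNT libraries, and the Ctsb segment is narrower in shNr4a3.

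Ctsk and Ctss, which lie side by side on chromosome 3, changed in opposite directions. Ctsk, a cysteine protease known for cutting collagen in bone-resorbing osteoclasts (95499256 to 95509362), was at 97.3 and 83.9 CPM in shNr4a3, against 36.1 and 37.3 CPM in shNT. It rose by 1.30 on the log2 scale (SE 0.1, edgeR adjusted p = 5.15e-06). Ctss, a cysteine protease known for processing the invariant chain of MHC class II in antigen-presenting cells, lies downstream on the same strand after a gap of 17423 bases. It was at 47.9 and 54.4 CPM in shNr4a3, against 92.3 and 74.1 CPM in shNT, and fell by 0.70 on the log2 scale (SE 0.12, edgeR adjusted p = 8.32e-04). On a scale of CPM per kilobase of exon, Ctsk stood at 1.82 and 1.39 times the level of Ctss in the shNr4a3 libraries, and at 0.352 and 0.452 times it in the shNT libraries. The genes on either side of the pair also differed from each other, with Golph3l higher by 0.62 on the log2 scale (edgeR adjusted p = 7.51e-04) and Arnt at 0.05 (adjusted p = 0.645).

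The other falls came from carboxypeptidases and 2 low cysteine proteases. Ctsf, a cysteine protease with a long propeptide (chromosome 19, 4855130 to 4860918), was at 5.96 and 5.54 CPM in shNr4a3, against 22.4 and 23.9 CPM in shNT. This fall of 2.01 on the log2 scale (SE 0.135, edgeR adjusted p = 2.25e-06) was 4.03-fold in the means and the largest of the class. Ctsz, a carboxypeptidase also called cathepsin X, was at 223 and 192 CPM in shNr4a3, against 348 and 349 CPM in shNT (log2 fold change -0.75, edgeR adjusted p = 8.09e-05). Ctsa, a serine carboxypeptidase that also protects other lysosomal enzymes from degradation, was at 179 and 165 CPM in shNr4a3, against 246 and 244 CPM in shNT (log2 fold change -0.51, edgeR adjusted p = 3.97e-04). Ctso, a little-studied cysteine protease, had 11.9 ± 0.839 CPM in shNr4a3 and 15.9 ± 0.527 CPM in shNT (SD, n = 2 each; log2 fold change -0.42, edgeR adjusted p = 0.0209). The Ctso call was lost without shNr4a3 replicate 2, without shNT replicate 2 and with DESeq2 (adjusted p = 0.0721, 0.101 and 0.0655). Ctsw, known from cytotoxic lymphocytes, had 0 and 12 counts in shNr4a3, against 18 and 7 counts in shNT, and its groups overlapped (edgeR adjusted p = 0.405). It passed without shNr4a3 replicate 2, which leaves a single shNr4a3 library with 0 counts (adjusted p = 0.0327).

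By level per kilobase of exon, Ctsl led the cathepsins analysed in every library, at 899 and 818 CPM per kilobase in shNr4a3 and 713 and 693 in shNT. Ctsz followed with 154 and 133 in shNr4a3 and 241 and 242 in shNT, and Ctsb with 119 and 121 in shNr4a3 and 230 and 230 in shNT. Ctsk came next in shNr4a3, at 64.4 and 55.5 CPM per kilobase, above Ctss (35.3 and 40.1) and Ctsa (37.9 and 35.0), whose levels overlapped. In shNT, Ctsk was below both, at 23.9 and 24.6 CPM per kilobase, while Ctss (68.0 and 54.5) was above Ctsa (52.2 and 51.7). Ctsf and Ctso stood last among the genes with over 1 CPM in each library. At the low end, Ctse, an aspartic protease, and Ctsq, one of the placental cathepsins of rodents, held at most 2 counts in any library. Ctsb shares 774 exon bases with Fdft1 on the opposite strand, which was at 17.7 and 15.3 CPM in shNr4a3, against 28.2 and 30.5 CPM in shNT. Ctsa shares 495 with Pltp on the opposite strand, at 12.6 and 10.98 CPM in shNr4a3, against 22.0 and 26.6 CPM in shNT. Both partners stood far below the cathepsin they overlap, but reads in the shared bases cannot be assigned without strand. Exon lengths are those of the deposited table, which differ from merged exons of GENCODE M21 for 20 of the 51 members, Ctsl among them.

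Markers of cells rich in cathepsins were read in the same libraries. Of 18 tested macrophage markers, 8 fell, 1 (Lyz1) rose and 9 missed the threshold, so 50% were called, against 60.2% of all genes tested. Their median log2 fold change was -1.01, against 0.02. Their summed level was 171 and 167 CPM in shNr4a3, against 245 and 193 CPM in shNT, most of it from Lyz2. The defining macrophage gene Adgre1 was at 1.13 and 2.54 CPM in shNr4a3, against 7.56 and 5.04 CPM in shNT, and Csf1r at 7.68 and 7.36 CPM against 7.35 and 5.86 CPM. The 6 osteoclast markers in the table summed to 4.27 and 4.82 CPM in shNr4a3, against 5.53 and 5.01 CPM in shNT, nearly all from Atp6v0d2, and Dcstamp was at 0 in all 4 libraries. Among 4 T and NK cell markers, Gzma was at 0 in all libraries and the sum stayed below 1 CPM per library. Lck was the only one tested and was called lower, with 2 and 3 counts in shNr4a3, against 24 and 21 counts in shNT (edgeR adjusted p = 0.00467). Mast cell and neutrophil markers summed to 3.94 and 2.51 CPM in shNr4a3, against 5.60 and 7.82 CPM in shNT. Of these 8 genes 2 were tested. Cpa3 fell, at 0.563 and 0.782 CPM in shNr4a3, against 2.77 and 3.08 CPM in shNT (edgeR adjusted p = 0.00126), Kit did not pass, and Elane and S100a8 were at 0 in all libraries. The part of these cells in the cathepsin values was not tested.

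Genes of the proton pump rose and fell in both of its sectors, and the summed levels of the genes analysed differed in direction between the sectors. Summed over the 8 genes analysed of the membrane-bound V0 sector, the level was 607 and 645 CPM in shNr4a3, against 407 and 399 CPM in shNT, 55.3% higher in the mean. Summed over the 10 genes analysed of the cytosolic V1 sector, it was 1045 and 1005 CPM in shNr4a3, against 1223 and 1219 CPM in shNT, 16.1% lower in the mean. Neither sum is a total of its sector, because several pump subunits were not analysed and the V0 gene Tcirg1 falls outside the symbol rule. Over all 19 pump genes the sums were close, at 1652 and 1650 CPM in shNr4a3 and 1630 and 1618 CPM in shNT. Among 15 tested pump genes, 5 rose, 5 fell and 5 missed the threshold, so 66.7% were called, near the 60.2% of all genes.

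Within the V0 sector, 3 of 8 genes rose, 1 fell and 4 missed the threshold, so 50% were called, against 60.2% of all genes tested. Atp6v0c and Atp6v0a1 had the widest gains in CPM within the V0 sum. Atp6v0c, the proteolipid that forms most of the proton-carrying ring (chromosome 17, 24163866 to 24169702), was at 181 and 171 CPM in shNr4a3, against 57.5 and 63.9 CPM in shNT. It rose by 1.53 on the log2 scale (SE 0.0872, edgeR adjusted p = 8.55e-07). Atp6v0b, the related second proteolipid of the ring, was at 26.5 and 23.6 CPM in shNr4a3, against 22.6 and 19.4 CPM in shNT, and did not pass (log2 fold change 0.26, edgeR adjusted p = 0.0994). Per kilobase of exon, Atp6v0c stood at 4.13 and 4.38 times Atp6v0b in the shNr4a3 libraries, and at 1.54 and 1.99 times it in the shNT libraries.

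The large a subunits, which couple the ring to proton passage and steer the pump to its membrane, also differed among themselves. Atp6v0a1 (chromosome 11, 101009452 to 101063719) was at 211 and 225 CPM in shNr4a3, against 97.1 and 88.0 CPM in shNT, a rise of 1.23 on the log2 scale (SE 0.085, edgeR adjusted p = 2.61e-06). Its paralogue Atp6v0a2 was at 155 and 195 CPM in shNr4a3, against 158 and 159 CPM in shNT, with overlapping groups (edgeR adjusted p = 0.277). The Atp6v0a2 value turned on 1 library: without shNr4a3 replicate 1 its log2 fold change was 0.30 and it passed (adjusted p = 0.00278). The a1 to a2 ratio per kilobase was 1.40 and 1.18 in the shNr4a3 libraries, and 0.629 and 0.569 in the shNT libraries. Atp6v0a4, known from kidney and inner ear, was at 1.06 and 0.944 CPM in shNr4a3, against 0.805 and 0.425 CPM in shNT, and did not pass; it shares 259 exon bases on its own strand with D630045J12Rik. The a3 subunit gene Tcirg1, which falls outside the symbol rule and the V0 sum, was at 33.6 and 36.0 CPM in shNr4a3, against 65.9 and 72.5 CPM in shNT, and fell by 0.99 on the log2 scale (edgeR adjusted p = 2.28e-05).

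The genes of the small e subunits of the V0 sector moved in opposite directions. Atp6v0e (chromosome 17, 26663231 to 26699647) was at 19.3 and 17.4 CPM in shNr4a3, against 62.5 and 63.1 CPM in shNT, and fell by 1.78 on the log2 scale (SE 0.101, edgeR adjusted p = 8.62e-07). Atp6v0e2 (chromosome 6, 48537615 to 48541801) was at 9.74 and 7.95 CPM in shNr4a3, against 3.50 and 1.18 CPM in shNT, and rose by 1.93 (SE 0.391, edgeR adjusted p = 0.00223). Its shNT libraries held 100 and 36 counts, a wide spread, yet both lay below the shNr4a3 libraries. Per kilobase, Atp6v0e2 stood at 0.692 and 0.625 times Atp6v0e in the shNr4a3 libraries, and at 0.0767 and 0.0255 times it in the shNT libraries. Atp6v0d2, a form of the d subunit known from osteoclasts, was at 3.71 and 4.30 CPM in shNr4a3, against 4.97 and 4.32 CPM in shNT, and did not pass.

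**Figure D3:**
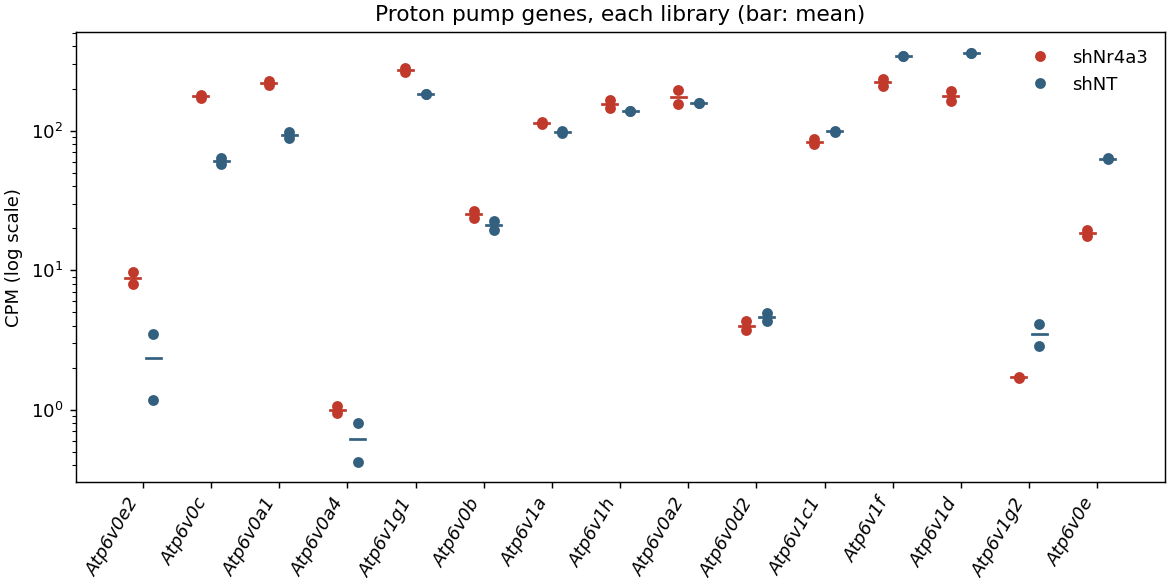
CPM of the 15 tested proton pump genes (log y axis) in each library, with shNr4a3 in red to the left of shNT in blue and a bar at each mean, genes ordered by the ratio of means. Atp6v0e2, Atp6v0c and Atp6v0a1 stand apart upward at the left, and Atp6v1d, Atp6v1g2 and Atp6v0e downward at the right.

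In the V1 sector 2 of 7 tested genes rose, 4 fell and 1 missed the threshold, so 85.7% were called, against 60.2% of all genes tested. Both tested genes for subunits of the central stalk fell. Atp6v1d, the rotor shaft (chromosome 12, 78840725 to 78861638), was at 190 and 163 CPM in shNr4a3, against 361 and 357 CPM in shNT, and fell by 1.02 on the log2 scale (SE 0.09, edgeR adjusted p = 1.18e-05). Atp6v1f, its partner in the shaft (chromosome 6, 29467718 to 29470512), was at 209 and 235 CPM in shNr4a3, against 339 and 344 CPM in shNT, and fell by 0.62 (SE 0.0827, edgeR adjusted p = 1.78e-04). Atp6v1g1, the common form of the G subunit in the outer stalk (chromosome 4, 63544772 to 63550750), rose: it was at 280 and 263 CPM in shNr4a3, against 182 and 181 CPM in shNT (log2 fold change 0.58, SE 0.0757, edgeR adjusted p = 1.49e-04). For all 3 genes the groups did not overlap.

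The remaining V1 genes changed little or rested on few reads. Atp6v1g2, the G subunit known from neurons, was at 1.69 and 1.73 CPM in shNr4a3, against 4.10 and 2.88 CPM in shNT (log2 fold change -1.03, edgeR adjusted p = 0.0195). Its exons share 144 bases with Nfkbil1 on the opposite strand, which was at 9.97 and 9.38 CPM in shNr4a3, against 13.8 and 12.9 CPM in shNT, and without strand the reads of the pair cannot be told apart. Atp6v1c1, which links the outer stalks to the membrane sector, was at 83.3 ± 4.22 CPM in shNr4a3 and 98.5 ± 0.579 CPM in shNT (SD, n = 2 each; log2 fold change -0.24, edgeR adjusted p = 0.029). Atp6v1a, the catalytic subunit, was at 111 and 115 CPM in shNr4a3, against 99.4 and 96.2 CPM in shNT (log2 fold change 0.21, edgeR adjusted p = 0.0465). The calls of Atp6v1g2 and Atp6v1c1 were each lost when a library was left out. The Atp6v1a call was lost under 8 alternatives, namely without shNr4a3 replicate 2, without either shNT library, with RLE or upper-quartile scaling, with no low-count filter, with DESeq2 and without genes that share exon bases. Atp6v1h, which regulates assembly of the pump, had 156 ± 14.7 CPM in shNr4a3 and 139 ± 0.0418 CPM in shNT (SD, n = 2 each) and did not pass (edgeR adjusted p = 0.125); it passed as higher without shNr4a3 replicate 2 (adjusted p = 0.0115). Atp6v1c2 and Atp6v1e2 held at most 8 counts in any library.

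Both Lamp genes of the table were at or near the limit of detection. Lamp3, an inducible lysosomal protein of dendritic and lung cells, held 4 and 0 counts in shNr4a3, against 2 and 0 counts in shNT, and Lamp5, a neuronal relative, held 0 counts in all 4 libraries. Neither was tested.

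Among the Atg genes, Atg5, Atg12, Atg4b, Atg4c, Atg9a and Atg2b rose, and Atg10, Atg14, Atg101 and Atg3 fell. All 15 were tested; 6 rose, 4 fell and 5 missed the threshold, and the median log2 fold change was -0.08. The 66.7% called lie near the 60.2% of all genes tested. The summed level was 838 and 832 CPM in shNr4a3, against 883 and 874 CPM in shNT.

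Atg5 and Atg12 are joined into a conjugate that, with Atg16l1, places Atg8 proteins on the growing membrane. Atg5 (chromosome 10, 44268358 to 44364291) was at 42.5 and 42.0 CPM in shNr4a3, against 19.5 and 18.3 CPM in shNT, the largest rise among the Atg genes (log2 fold change 1.16, SE 0.101, edgeR adjusted p = 1.10e-05). Atg12 (chromosome 18, 46730144 to 46741580) was at 103 and 98.8 CPM in shNr4a3, against 69.3 and 69.9 CPM in shNT, and rose by 0.53 (SE 0.0801, edgeR adjusted p = 3.73e-04). Atg16l1 was at 38.5 and 45.6 CPM in shNr4a3, against 38.3 and 36.5 CPM in shNT, and did not pass (edgeR adjusted p = 0.21); without shNr4a3 replicate 1 it passed as higher (log2 fold change 0.29, adjusted p = 0.0274). Atg10, the E2-like enzyme that joins Atg12 to Atg5, went the other way: it was at 3.68 and 3.78 CPM in shNr4a3, against 8.19 and 6.87 CPM in shNT, and fell by 1.01 (SE 0.205, edgeR adjusted p = 0.00219). Atg3, the E2-like enzyme that joins Atg8 proteins to lipid and the most abundant gene of the class, was at 399 and 363 CPM in shNr4a3, against 479 and 481 CPM in shNT (a log2 difference of -0.33 with SE 0.0783, edgeR adjusted p = 0.00497). The Atg3 call was lost without shNT replicate 2 (adjusted p = 0.0557).

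The Atg4 proteases cut Atg8 precursors and later release Atg8 from membranes. Atg4b (chromosome 1, 93751500 to 93790610) was at 42.2 and 40.1 CPM in shNr4a3, against 21.3 and 20.9 CPM in shNT, and rose by 0.96 on the log2 scale (SE 0.0998, edgeR adjusted p = 3.42e-05). Its relative Atg4c had 21.6 ± 1.51 CPM in shNr4a3 and 16.1 ± 0.253 CPM in shNT (SD, n = 2 each; log2 fold change 0.42, edgeR adjusted p = 0.012). Atg4a-ps, named as an Atg4a pseudogene but annotated as protein-coding, stayed below 1 CPM in every library and did not pass. It shares 505 exon bases on the opposite strand with Syt6, at 0 and 0 CPM in shNr4a3, against 0.840 and 1.11 CPM in shNT. Without strand the reads of the pair cannot be told apart.

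Genes that start and feed the membrane went both ways. Atg14, the subunit that sends the class III phosphoinositide kinase to the site of formation (chromosome 14, 47540893 to 47570649), was at 30.8 and 34.9 CPM in shNr4a3, against 47.6 and 52.7 CPM in shNT, and fell by 0.61 (SE 0.107, edgeR adjusted p = 9.33e-04). Atg101, a scaffold of the ULK kinase complex, was at 45.6 and 49.0 CPM in shNr4a3, against 68.3 and 61.3 CPM in shNT (log2 fold change -0.45, edgeR adjusted p = 0.00287). Its partner Atg13 was at 14.8 and 16.7 CPM in shNr4a3, against 18.2 and 15.1 CPM in shNT, with overlapping groups (edgeR adjusted p = 0.665). Atg9a, the lipid scramblase of the seeding vesicles, had 13.0 ± 0.0544 CPM in shNr4a3 and 9.25 ± 0.25 CPM in shNT (SD, n = 2 each; log2 fold change 0.49, edgeR adjusted p = 0.0133). Its relative Atg9b held 6 and 0 counts in shNr4a3, against 16 and 12 counts in shNT, and did not pass (edgeR adjusted p = 0.0844); it passed as lower with limma-voom (adjusted p = 0.0416) and without shNr4a3 replicate 1 (0.0216).

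The values of the lipid transfer protein genes Atg2a and Atg2b differed between the shNr4a3 libraries. Atg2b was at 65.5 and 74.2 CPM in shNr4a3, against 60.1 and 57.6 CPM in shNT (log2 fold change 0.25, edgeR adjusted p = 0.0471), a call that was lost under 7 of the alternatives, including RLE and upper-quartile scaling, no low-count filter, DESeq2 and without either shNT library. Atg2a was at 19.7 and 28.0 CPM in shNr4a3, against 26.8 and 27.0 CPM in shNT, and did not pass (adjusted p = 0.37). Without shNr4a3 replicate 2 it passed as lower (log2 fold change -0.46, adjusted p = 0.00705). Atg2b shares 383 exon bases with Gskip, Atg9a 46 with Ankzf1 and Atg9b 294 with Nos3, all on the opposite strand. Nos3 was at 0.662 and 0.521 CPM in shNr4a3, against 1.54 and 1.21 CPM in shNT. Without strand, the few reads of Atg9b cannot be told apart from those of Nos3. The calls of Atg4c and Atg9a were also lost when a library was left out. Across the 10736 genes tested, the log2 ratio of shNr4a3 replicate 1 to replicate 2 had a Spearman correlation of -0.26 with exon length, against -0.08 between the shNT libraries and 0.05 for the log2 fold change between the groups. Over the 39 members tested, the same 3 correlations were -0.19, -0.11 and 0.28. The part of exon length in the members' values was not tested.

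**Figure D4:**
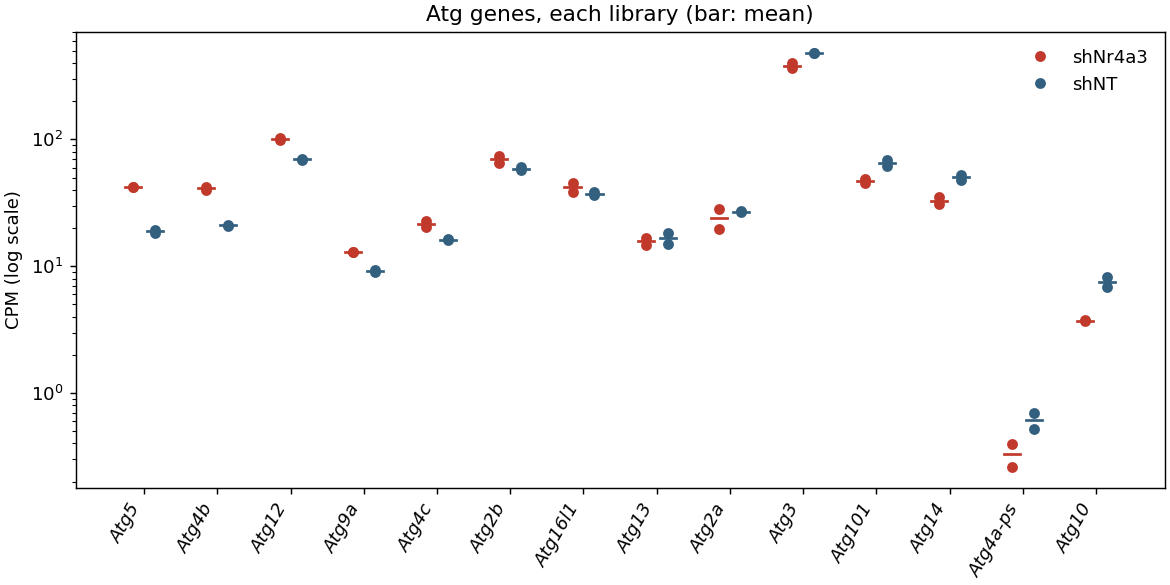
CPM of 14 Atg genes (log y axis) in each library, with shNr4a3 in red to the left of shNT in blue and a bar at each mean, genes ordered by the ratio of means. Atg9b is left out because 1 library held 0 counts; Atg5 and Atg4b show the widest upward gaps and Atg10 the widest downward gap among the genes that passed.

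The wider autophagy pathway was read from a list of initiation and membrane genes. Of 18 tested, 12 rose, 2 fell and 4 missed the threshold. The median log2 fold change was 0.37 against 0.02 over all genes, and with 77.8% called against 60.2%. Ulk2, a kinase that starts autophagy, was at 129 and 127 CPM in shNr4a3, against 35.4 and 35.4 CPM in shNT (log2 fold change 1.85, SE 0.0827, edgeR adjusted p = 2.11e-07). Its relative Ulk1 was at 28.5 and 33.1 CPM in shNr4a3, against 14.7 and 14.3 CPM in shNT (log2 fold change 1.08, edgeR adjusted p = 5.23e-05). The genes that fell were Bcl2l1, an inhibitor of apoptosis that also binds Beclin, and Vmp1, a lipid scramblase of the endoplasmic reticulum. Bcl2, a relative of Bcl2l1 on the same list, rose by 0.59 on the log2 scale (edgeR adjusted p = 3.64e-04). The counts for this list do not separate genes that promote autophagy from genes that restrain it. Bcl2l1 had 64.8 ± 5.97 CPM in shNr4a3 and 162 ± 1.27 CPM in shNT, and Vmp1 had 57.9 ± 2.57 CPM in shNr4a3 and 129 ± 1.77 CPM in shNT (SD, n = 2 each).

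Of the Atg8 family, the ubiquitin-like tags of the membrane, 2 genes were tested. Map1lc3a was at 55.6 and 54.2 CPM in shNr4a3, against 31.6 and 28.1 CPM in shNT, and rose by 0.88 (edgeR adjusted p = 6.32e-05). Gabarap was at 75.5 and 73.9 CPM in shNr4a3, against 94.0 and 88.5 CPM in shNT, and fell by 0.29 (edgeR adjusted p = 0.0132), a call lost without either shNT library (0.132 without replicate 1 and 0.059 without replicate 2). Cargo receptors bind these tags and bring their freight to the membrane. The list also holds Tbk1 and Pink1, kinases that act on receptors or mark mitochondria and are not receptors themselves. All 14 genes tested were called, 10 as lower, Tbk1 and Pink1 among them, and 4 as higher, against 29.4% lower and 30.7% higher over all genes. The median log2 fold change was -0.38, against 0.02 over all genes. Stbd1, a receptor for glycogen, was at 97.0 and 90.1 CPM in shNr4a3, against 26.9 and 28.5 CPM in shNT (log2 fold change 1.75, edgeR adjusted p = 5.65e-07). The receptors for endoplasmic reticulum went both ways. Atl3 and Fam134b fell by 1.64 and 1.26 on the log2 scale, while Rtn3, Sec62 and Calcoco1 rose by 0.84, 0.59 and 0.42. Bnip3l, a receptor for mitochondria, fell by 0.98. Sqstm1, the p62 receptor for ubiquitylated protein, was chosen after its values were seen; it was at 663 and 649 CPM in shNr4a3, against 870 and 900 CPM in shNT (log2 fold change -0.43, edgeR adjusted p = 7.31e-04).

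Other enzymes of the lysosome also went both ways. Among 27 tested hydrolase genes, 7 rose, 11 fell and 9 missed the threshold. The 66.7% called lie near the 60.2% of all genes tested, and the median log2 fold change was -0.05, against 0.02. Sgsh, which removes sulfate from heparan sulfate, was at 9.87 and 8.89 CPM in shNr4a3, against 51.0 and 48.9 CPM in shNT (log2 fold change -2.41, edgeR adjusted p = 2.33e-07), and shares exon bases with another gene. Scpep1, a serine carboxypeptidase, fell by 1.75 to 50.1 ± 2.76 CPM in shNr4a3, against 169 ± 1.67 CPM in shNT (SD, n = 2 each). Galc, which degrades galactosylceramide, was at 71.7 and 73.9 CPM in shNr4a3, against 22.7 and 17.9 CPM in shNT (log2 fold change 1.85, edgeR adjusted p = 2.08e-06). Gusb, the lysosomal beta-glucuronidase, was at 166 and 144 CPM in shNr4a3, against 49.9 and 44.7 CPM in shNT (log2 fold change 1.71, edgeR adjusted p = 1.01e-06).

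Of 33 tested genes for lysosomal membrane proteins, 12 rose, 11 fell and 10 missed the threshold. With 69.7% called, against 60.2% of all genes tested, the median log2 fold change was -0.09, against 0.02. Mfsd12, a cysteine transporter, was at 20.4 and 15.9 CPM in shNr4a3, against 6.13 and 5.43 CPM in shNT (log2 fold change 1.65, edgeR adjusted p = 3.48e-05), and shares exon bases with another gene. The others with the largest changes fell and are known from macrophages: the ion channel gene Mcoln2, the metal transporter gene Slc11a1 and Cd68. Mcoln2 held 0 and 2 counts in shNr4a3, against 34 and 69 counts in shNT, a ratio of 53.0 for shNT over shNr4a3 (exact 95% interval 14.3 to 444). Slc11a1 was at 0.397 and 0.586 CPM in shNr4a3, against 2.66 and 1.15 CPM in shNT, and passed with all libraries (edgeR adjusted p = 0.0138) but not without shNr4a3 replicate 1 or shNT replicate 1 (adjusted p = 0.0506 and 0.204). Cd68 was at 7.39 and 6.51 CPM in shNr4a3, against 22.7 and 19.9 CPM in shNT (log2 fold change -1.61, edgeR adjusted p = 1.30e-05).

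Inhibitors of cathepsins and of related proteases showed some of the largest shifts. Of 9 tested, 5 fell, 3 rose and 1 missed the threshold, so 88.9% were called, against 60.2% of all genes tested. The median log2 fold change was -0.52, against 0.02. Ctla2a, a mouse protein that resembles the propeptide of cathepsins and inhibits cysteine proteases, was at 300 and 271 CPM in shNr4a3, against 48.3 and 53.4 CPM in shNT (log2 fold change 2.49, SE 0.0933, edgeR adjusted p = 9.89e-08). Its close copy Ctla2b rose by 1.86, and near-identical copies can exchange reads. The serpin genes Serpinb6b and Serpinb9 had log2 fold changes of 1.34 and -1.36, with the same doubt for close relatives. The cystatins Cst3 and Cstb, tight inhibitors of cysteine cathepsins, were chosen after their values were seen. Cst3 was at 727 and 673 CPM in shNr4a3, against 1334 and 1371 CPM in shNT (log2 fold change -0.95, edgeR adjusted p = 7.06e-06), and Cstb fell by 1.32 on the log2 scale.

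A short list held the MiT/TFE factors, which switch on lysosomal genes, with other transcription factors of the pathway and Gpnmb, a lysosomal glycoprotein gene known as their target. Of its 8 genes 6 were in the table, with Tfeb and Tfec as the only MiT/TFE factors. Of 6 tested, 1 rose, 3 fell and 2 missed the threshold. The 66.7% called lie near the 60.2% of all genes tested, with a median log2 fold change of -0.41, against 0.02. Tfeb, the factor best known for lysosome formation, was at 12.7 and 16.1 CPM in shNr4a3, against 4.59 and 4.84 CPM in shNT (log2 fold change 1.61, SE 0.179, edgeR adjusted p = 5.45e-05). Its relative Tfec, known from macrophages, was at 4.77 and 3.42 CPM in shNr4a3, against 9.88 and 11.4 CPM in shNT (log2 fold change -1.38, edgeR adjusted p = 3.99e-04). The forkhead factor gene Foxo3 and Gpnmb fell by 0.95 and 0.58 on the log2 scale.

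**Figure D5:**
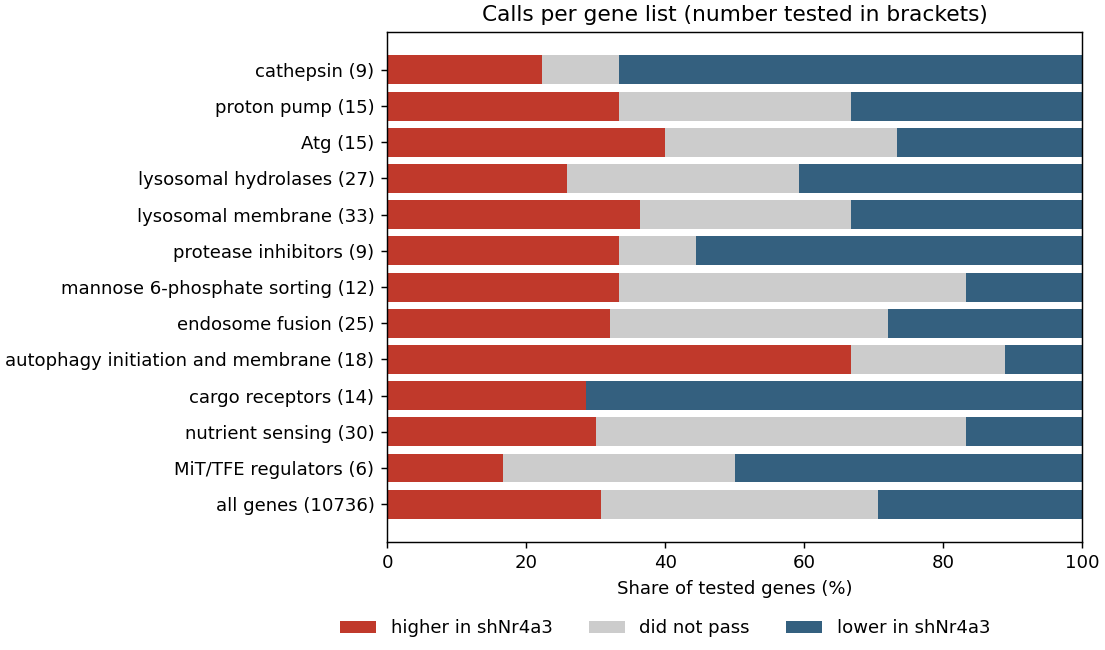
Share of tested genes (x axis, percent) that were higher in shNr4a3 (red), did not pass (grey) or were lower (blue) in the lysosome and autophagy gene lists with over 2 genes tested, cell type markers left out, with all genes at the bottom and the number tested in brackets. Among the lists plotted, the initiation and membrane list has the widest red part (12 of 18), while cargo receptors (10 of 14) and cathepsins (6 of 9) have the widest blue parts.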

How the data were processed

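Raw read counts were deposited as 1 table, with a row for each gene and 1 column per library; featureCounts of Subread 1.5.1, Trimmomatic 0.36, SAMtools and build mm10 are named per the submitters' processing notes. No aligner, strand setting or annotation release is named per the labels; the labels' protocols name ribosomal depletion and a stranded kit, while the molecule label reads polyA RNA. Long exon lists in the table are cut short, so coordinates and exon overlaps came from GENCODE M21 (mm10).

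Every gene was fitted with edgeR 4.0.16 (R 4.3.3; quasi-likelihood F test, TMM, filterByExpr, hairpin only), and p-values were Benjamini-Hochberg adjusted over the 10736 genes tested, with a threshold of 0.05. SE is the size of the log2 fold change divided by the square root of F. The code was tested on simulated data. Libraries of a group differed by more than counting noise (chi-square per degree of freedom 22.1 in shNr4a3 and 10.6 in shNT). Intervals and floors cover counting error only.

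Members with an absolute log2 fold change of at least 0.5, the 3 most abundant of each class, their partners, and up to 4 called genes per list were to be described by value; other members are given more briefly. The members and lists were chosen with earlier results of these data known. Alternatives were other scalings, no filter, DESeq2 1.42.0, limma-voom (limma 3.58.1), a replicate block, each library left out, and no genes with shared exon bases.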

Additional observations from a re-analysis of the deposited data

How the results depend on the processing

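Of the 28 members called, 19 kept their direction and call under each alternative in which they were tested; the other 9 (Atg2b, Atg3, Atg4c, Atg9a, Atp6v1a, Atp6v1c1, Atp6v1g2, Ctsl and Ctso) lost it under at least 1, and no called member reversed. Leaving out 1 library gave 6 to 8 cathepsins, 7 to 10 pump genes, 7 to 12 Atg genes and 5245 to 6360 genes in all, against 8, 10, 10 and 6458 with all libraries. Without genes that share exon bases 5 cathepsins were called, because 4 of the 9 tested, including Ctsb, were removed. With the replicate number as a block the counts were 8, 10, 10 and 6659, and no member changed its call; the numbers share no stated origin, and deviations of same-numbered libraries correlated at 0.0229. Leaving out 1 library assumes that the lone library of a group varies like the others. Ap1s1, among the list genes named, lost its call without shNT replicate 1. With 2 libraries a group, genes of a few counts (Ctsw, Atg9b, Atp6v0a4) could not be placed.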

Other observations

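Genes that sort enzymes to the lysosome and fuse its membranes had called shares of 50% and 60%, against 60.2% of all genes tested. Of 12 tested genes of mannose 6-phosphate and retromer sorting 4 rose, 2 fell and 6 missed the threshold (50% called), with a median log2 fold change of 0.01, against 0.02. Sort1, a sorting receptor for lysosomal proteins, was at 148 and 176 CPM in shNr4a3, against 81.8 and 74.6 CPM in shNT (log2 fold change 1.05, edgeR adjusted p = 2.31e-05). Gga1 and Ap1s1, adaptors of the same route, rose by 0.62 and 0.48 on the log2 scale, and the retromer subunit gene Vps26a fell by 0.54. Of 25 genes of endosome and lysosome fusion and transport 8 rose, 7 fell and 10 missed the threshold (60% called), with a median of 0.12, against 0.02. The SNARE genes Vti1a and Vti1b fell by 1.16 and 1.09; Vti1b was at 285 and 250 CPM in shNr4a3, against 585 and 552 CPM in shNT, and shares exon bases with another gene. Arl8a, a GTPase that moves lysosomes outward, and Borcs6, a subunit of the complex that recruits it, had log2 fold changes of 0.90 and 1.19 (edgeR adjusted p = 1.17e-05 and 0.00175).

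Of 30 genes of nutrient sensing, the pathway through which mTORC1 and AMPK set autophagy, 9 rose, 5 fell and 16 did not pass, so 46.7% were called, against 60.2% of all genes tested. The median log2 fold change was 0.12, against 0.02. Rragc, a GTPase that brings mTORC1 to the lysosome, was at 53.0 and 54.8 CPM in shNr4a3, against 174 and 178 CPM in shNT (log2 fold change -1.71, edgeR adjusted p = 2.36e-07), and shares exon bases with another gene. Rheb, the GTPase that activates mTORC1, fell by 1.02 to 69.7 ± 4.06 CPM in shNr4a3, against 141 ± 7.49 CPM in shNT (SD, n = 2 each). Prkaa2, a catalytic subunit of AMPK, rose by 0.98 and Ddit4, an inhibitor of mTORC1, by 0.92 on the log2 scale. These 4 were named for the size of their change. Other called genes included Tsc2, also an inhibitor of mTORC1, which fell by 0.78 and shares exon bases with another gene. Mtor, the kinase itself, rose by 0.32. The activity of mTORC1 was not tested.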
